A study of Mus musculus with 12 samples.

Results

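Potassium channel genes were examined in the hearts of mice that express NOTCH2NLC with 98 GGC repeats and of their controls. They were taken as every row of the count table whose gene symbol starts with Kcn, which gave 94 of the 25171 loci listed. All 94 matched GENCODE M21 (GRCm38) by identifier. By symbol, 40 were placed among voltage-gated, 15 among inward rectifier, 14 among two-pore and 8 among calcium-activated pore subunits. A further 16 encode auxiliary subunits, and the last, Kcnrg, carries the symbol without being a pore subunit. The calcium-activated group holds Kcnma1, the Kcnn genes, Kcnt1, Kcnt2 and Kcnu1, and was formed by symbol and not by what opens each channel.

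The 12 hearts sequenced came from 3 mice for each of 4 groups. All mice carried the conditional transgene, in which a loxP-flanked stop precedes the repeat at the Rosa26 site. EIIa-tg mice (E2a-transgenic in the labels) also carried EIIa-Cre, which acts in all tissues, and their littermates without Cre (EIIa-ctl) were the controls, both at postnatal day 30. Myh6-tg mice, according to the study, carried Myh6-creERT2, a Cre made under a cardiomyocyte promoter and activated by tamoxifen. They received 3 injections of tamoxifen at 75 mg/kg from day 60 and were collected at day 90. Myh6-ctl mice were of the same age and received corn oil, and their labels give the same genotype as those of Myh6-tg. Expression of the repeat and exposure to tamoxifen thus cannot be told apart in this model. Neither can be told apart from a difference in Esr1 reads between these groups, given below, which goes against the shared genotype label. Age, Cre line and injection cannot be told apart between the models either.

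Potassium channels carry the outward currents that end each cardiac action potential and hold the resting membrane potential. In mouse ventricle the fast transient outward current is carried by Kcnd2 and Kcnd3 pores with the accessory protein Kcnip2, delayed currents by pores such as Kcna5, and the resting current by Kcnj2 and Kcnj12. Kcnj3 and Kcnj5 form the channel opened by muscarinic receptors, which is most abundant in atria, and Kcnj11 and Kcnj8 form channels closed by ATP.

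Between 38343106 and 50969834 counts were obtained per heart, and 3 counts corresponded to 0.0589 to 0.0782 CPM (counts relative to the library total), a floor that covers counting error only. Mitochondrial protein-coding genes took 31.8% to 38.3% of the counts in Myh6-ctl hearts and 15.5% to 18.6% in Myh6-tg hearts. The summed level of 8 cardiomyocyte markers was 36195 to 50642 normalised CPM in Myh6-ctl hearts and 9625 to 30045 in Myh6-tg hearts, and 48621 to 56852 in EIIa-ctl hearts and 22923 to 42381 in EIIa-tg hearts, with none of the 8 at 0. Counts from the Y chromosome were found in replicate 1 of every group and were at most 2 in the others. Although the extraction protocol in the labels names brain, 8 neuron and glia markers summed to at most 25.0 normalised CPM. Esr1, the gene for an estrogen receptor whose ligand-binding domain is part of creERT2, was at 1027 to 2336 normalised CPM in Myh6-ctl hearts but 0.988 to 2.49 in Myh6-tg hearts, which goes against the shared genotype label, and its cause was not tested. Sqstm1, which encodes an autophagy receptor that gathers in protein inclusions, was at a mean of 379 normalised CPM in EIIa-ctl hearts and 1083 in EIIa-tg, and at 665 in Myh6-ctl against 1906 in Myh6-tg hearts. The transgene itself was not analysed here.

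A Kcn gene was taken as detected where its mean FPKM (the deposited unit, scaled to transcript length and sequenced fragments) was at least 0.1 in at least 1 group. By this limit 56 of the 94 genes were detected, and 36 reached 0.5 FPKM. Detected genes were 21 of the 40 voltage-gated, 10 of the 15 inward rectifier, 6 of the 14 two-pore, 6 of the 8 calcium-activated and 12 of the 16 auxiliary genes, together with Kcnrg. For 8 genes no read was counted in any heart, namely Kcna10, Kcng3, Kcnh5, Kcnk7, Kcnk9, Kcnk15, Kcnk16 and Kcnk18.

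Per length, the leading gene over the 12 hearts was Kcnip2, with a mean of 41.5 FPKM, followed by Kcng2 at 31.4 FPKM and Kcnk3 at 31.3 FPKM. Kcng2 encodes a silent voltage-gated subunit that modifies the channels of other pore subunits, and Kcnk3 an acid-sensitive two-pore leak channel. Next in order were Kcnj11 (23.1 FPKM), Kcnj8 (22.4 FPKM), the delayed rectifier gene Kcnh2 (13.9 FPKM), Kcna5 (10.2 FPKM) and Kcnq1 (8.42 FPKM). Neighbours in this order were close: in EIIa-ctl hearts Kcng2 was at 25.8 FPKM ± 1.32 and Kcnj8 at 25.6 FPKM ± 2.22 (SD, n = 3), a gap smaller than the spread between hearts. The order also differed by group. Kcnip2 was at 76.1 FPKM ± 15.1 in EIIa-ctl hearts against 37.6 FPKM ± 12.8 in EIIa-tg, and at 47.9 FPKM ± 7.75 in Myh6-ctl hearts against 4.38 FPKM ± 5.32 in Myh6-tg, where Kcng2, at 37.2 FPKM ± 5.37, stood above it.

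**Figure D1:**
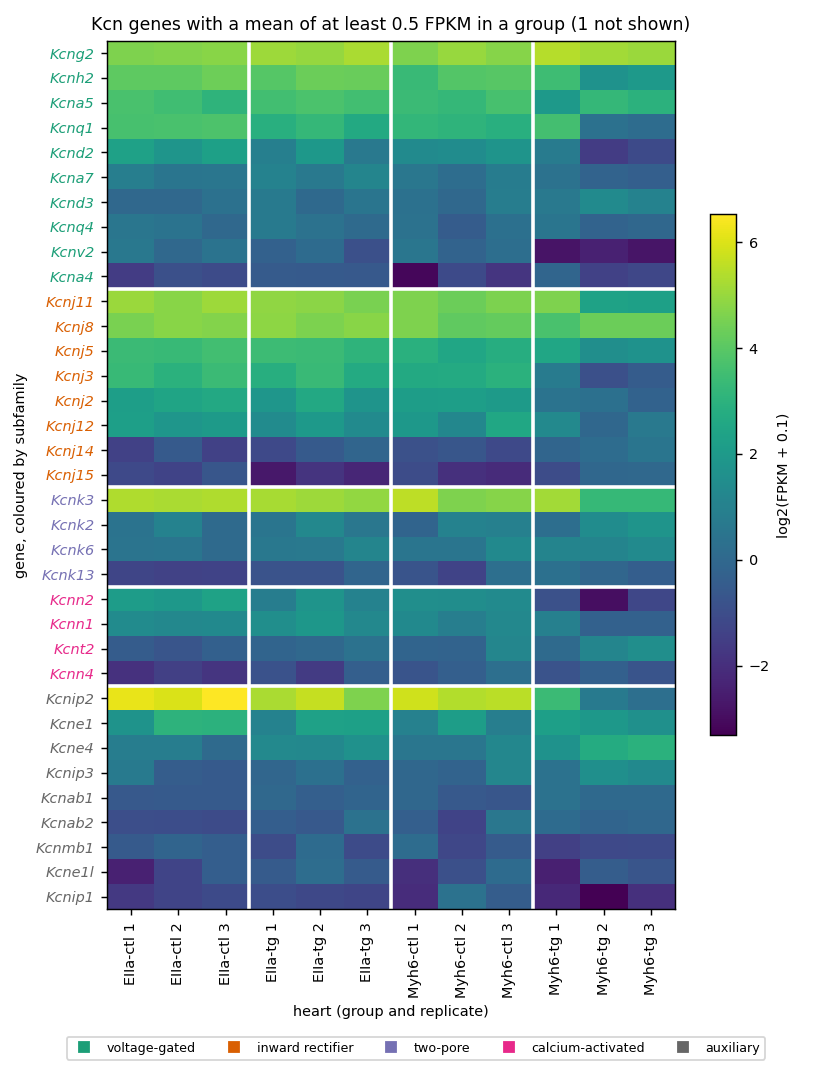
Level of 35 Kcn genes (rows, coloured by subfamily) with a mean of at least 0.5 FPKM in a group, as log2(FPKM + 0.1), in each of the 12 hearts (columns). Kcnip2 was the brightest row in EIIa-ctl hearts, at a mean of 76.1 FPKM, and was at 4.38 FPKM in Myh6-tg hearts.

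Summed over all 94 genes, Kcn levels were 308 FPKM ± 23.3 in EIIa-ctl hearts against 259 FPKM ± 20.6 in EIIa-tg, and 239 FPKM ± 21.2 in Myh6-ctl hearts against 151 FPKM ± 41.3 in Myh6-tg (SD, n = 3). Auxiliary genes, of which Kcnip2 made up 77.8% of the sum, were at 87.6 FPKM ± 15, 48.9 FPKM ± 12.8, 57.2 FPKM ± 6.50 and 19.6 FPKM ± 2.95 in the same order. Inward rectifiers were at 86.9 FPKM ± 5.46, 79.7 FPKM ± 6.19, 65.4 FPKM ± 7.81 and 38.8 FPKM ± 10.3. For auxiliary, inward rectifier and calcium-activated genes every Myh6-tg heart was below every Myh6-ctl heart, whereas for voltage-gated and two-pore genes the groups overlapped, because replicate 1 of Myh6-tg was at 80.3 and 40.2 FPKM and the other hearts of its group were at or below 57.1 and 16.8 FPKM. These sums have no test, and on the log2 scale with a pseudocount of 0.1 the FPKM values moved the median of all genes by 0.43 in the Myh6 comparison and 0.20 in the EIIa comparison, towards higher values in transgenic hearts.

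**Figure D2:**
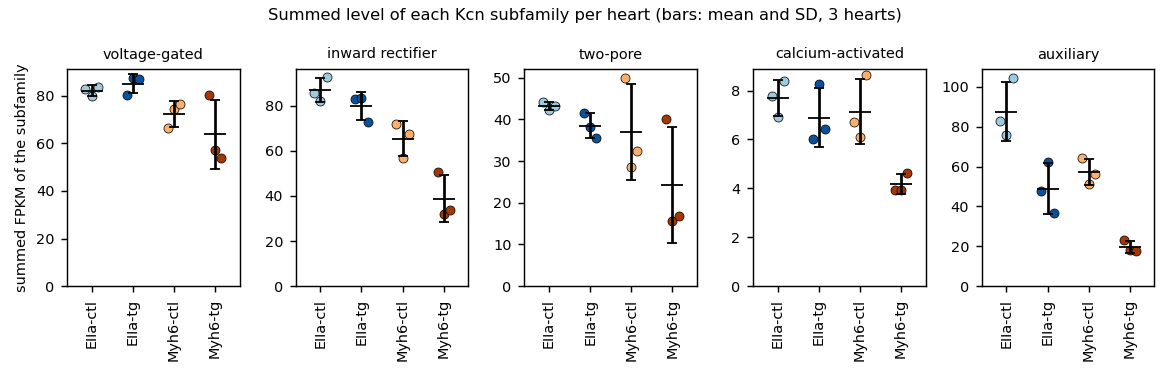
Summed FPKM of each Kcn subfamily (vertical axes, each from 0) in every heart of the 4 groups, with the mean and SD of 3 hearts. Auxiliary genes were at a mean of 57.2 FPKM in Myh6-ctl and 19.6 FPKM in Myh6-tg hearts.

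Changes between groups were tested on counts with edgeR's quasi-likelihood test across all genes, and a gene was called where its p, adjusted over all genes by the Benjamini-Hochberg method, was under 0.05. A called gene was also counted as a DEG when the adjusted p fell below 0.01 and its level at least doubled or halved (1 on the log2 scale). The study used these thresholds with DESeq2 and not edgeR, and its lists of DEGs are longer in both models than those by edgeR here. Levels of single hearts are given as normalised CPM, which are CPM scaled further by TMM factors over the 12 hearts. These values compare a gene between hearts and not genes with each other.

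In Myh6-tg hearts the pore genes of the resting current (Kcnj2, Kcnj12) and of the acetylcholine-activated current (Kcnj3, Kcnj5), the accessory gene Kcnip2, and Kcnv2, Kcna5, Kcnn1 and Kcnn2 were lower than in Myh6-ctl. Of 55 Kcn genes tested, 9 were called lower (16.4%) and 1 higher, beside 9.38% of all 15298 genes called lower and 8.96% called higher. Called genes together were 10, or 18.2%, beside 18.3% of all genes. Their median log2 fold change was -0.42 over the 55 genes, and 0.03 over all genes tested. By subfamily, 2 of 22 voltage-gated, 4 of 11 inward rectifier, 2 of 5 calcium-activated and 1 of 11 auxiliary genes were called lower, 1 auxiliary gene was called higher, and none of 5 two-pore genes was called. DEGs were 3 of the 55 (5.45%), beside 3.97% of all genes, and these were Kcnv2, Kcnj2 and Kcnj3. Without Myh6-tg replicate 1, 17 Kcn genes were called lower and 1 higher, while calls over all genes rose from 2805 to 4269 of 15967. Without any other of the 6 hearts, between 3 and 5 were called, all lower, while calls over all genes went from 2805 to between 798 and 1755. Of 24 subunits listed for cardiac repolarization, 23 were tested, and edgeR called 8 lower and 1 higher, beside the 9.38% and 8.96% of all genes. The list is a part of the Kcn genes, chosen with earlier results of these data known, and is no separate result. The bulk RNA cannot tell fewer cells of a type from less RNA per cell.

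Kcnv2, a silent voltage-gated subunit that forms channels only with other pore subunits, lies at chr19:27322588-27337179 (plus strand) and was called lower in Myh6-tg hearts. It was at 8.18, 4.91 and 5.45 normalised CPM in the Myh6-ctl hearts and at 0.211, 0.387 and 0.186 in the Myh6-tg hearts, where 10, 18 and 10 reads were counted. Each Myh6-tg heart was far below each control, replicate 1 included. The log2 fold change was -4.54 ± 0.45 (SE), with an adjusted p of 0.00217 (edgeR). EIIa-tg hearts were at 3.78, 5.33 and 2.04 normalised CPM beside 8.66, 4.99 and 7.39 in EIIa-ctl, where the groups overlapped and the gene was not called (log2 fold change -0.91 ± 0.35, adjusted p 0.104, edgeR).

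Among the inward rectifiers, Kcnj2 (chr11:111066164-111076821, plus strand), the main pore of the resting current in ventricle, was at 27.9, 30.2 and 21.3 normalised CPM in Myh6-ctl hearts and 6.26, 5.31 and 3.17 in Myh6-tg hearts. The hearts of each group lay close together and the groups did not overlap. Its log2 fold change was -2.41 ± 0.29, with an adjusted p of 0.00370 (edgeR). Its relative Kcnj12 was at 10.1, 6.86 and 12.9 normalised CPM in Myh6-ctl and 5.10, 1.70 and 2.59 in Myh6-tg, also without overlap (-1.65 ± 0.44, edgeR adjusted p 0.0376).

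Kcnj3 (chr2:55435970-55598145, plus strand) and Kcnj5, the pore subunits of the acetylcholine-activated channel, were both lower. Kcnj3 was at 38.5, 41.4 and 37.2 normalised CPM in Myh6-ctl hearts and 7.15, 1.89 and 2.57 in Myh6-tg hearts. Kcnj5 was at 41.4, 32.6 and 31.4 in Myh6-ctl and 23.1, 11.1 and 10.8 in Myh6-tg. In neither gene did the groups overlap, and in both replicate 1 was the highest Myh6-tg heart. The log2 fold changes were -3.32 ± 0.48 for Kcnj3 (adjusted p 0.00607, edgeR) and -1.21 ± 0.32 for Kcnj5 (adjusted p 0.0368, edgeR). The 6 atrial markers, Nppa among them, summed to 157 to 1827 normalised CPM in Myh6-ctl hearts and 4154 to 6446 in Myh6-tg. Of the 4 tested, 1 was called, higher. The amount of atrial tissue in each heart was not measured, and its part in the Kcnj3 and Kcnj5 values was not tested.

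Genes of the ATP-sensitive channel differed in their spread among Myh6-tg hearts. Kcnj11, its pore in cardiomyocytes, was at 89.9, 77.8 and 72.5 normalised CPM in Myh6-ctl hearts and 71.5, 13.2 and 11.6 in Myh6-tg, so that replicate 1 was just below the lowest control and the other Myh6-tg hearts were far below (-1.30 ± 0.65, edgeR adjusted p 0.203). Kcnj8, a pore of the same family that is prominent in vascular cells, was at 70.6, 54.1 and 45.3 in Myh6-ctl and 30.1, 41.3 and 39.2 in Myh6-tg (-0.60 ± 0.22, adjusted p 0.0974, edgeR). Neither was called. Smooth muscle and pericyte markers summed to 1061 to 1334 normalised CPM in Myh6-ctl hearts and 1040 to 1605 in Myh6-tg, with 1 of 7 called higher and 1 lower. The regulatory partner of these pores, Abcc9, was lower in each Myh6-tg heart (77.0, 61.8 and 70.8 normalised CPM, beside 337, 266 and 270 in Myh6-ctl), with a log2 fold change of -2.04 ± 0.20 and an adjusted p of 0.00207 (edgeR).

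For the transient outward current, the gene called by edgeR was the accessory one. Kcnip2 (chr19:45791839-45816061, minus strand), which encodes a calcium-binding protein needed for surface expression of Kcnd2 and Kcnd3 channels, was at 154, 123 and 102 normalised CPM in Myh6-ctl hearts and 23.1, 3.03 and 2.07 in Myh6-tg hearts. Every Myh6-tg heart was below every control, and replicate 1 stood apart from the others of its group. Its log2 fold change was -3.73 ± 0.89 (adjusted p 0.0267, edgeR), and -5.62 ± 0.30 without replicate 1. Kcnd2 was at 15.1, 17.0 and 16.9 normalised CPM in Myh6-ctl and 7.76, 1.03 and 1.45 in Myh6-tg, again with replicate 1 highest in its group, and was not called (-2.24 ± 0.70, adjusted p 0.0614, edgeR). Kcnd3 was at 9.79, 7.98 and 10.5 in Myh6-ctl and 9.76, 15.4 and 10.7 in Myh6-tg, where the groups overlapped (0.36 ± 0.24, adjusted p 0.331, edgeR).

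Per length, Kcnd2 stood above Kcnd3 in every heart of the other groups and below it in Myh6-tg replicates 2 and 3. The ratio of their FPKM was 2.14, 2.97 and 1.98 in Myh6-ctl hearts and 1.10, 0.0930 and 0.187 in Myh6-tg hearts. It was 5.41, 3.74 and 4.09 in EIIa-ctl and 1.14, 3.99 and 1.13 in EIIa-tg, so 1 EIIa-tg heart was within the range of its controls. The ratio of Kcnip2 to the summed FPKM of Kcnd2 and Kcnd3 was 15.4, 11.7 and 9.02 in Myh6-ctl hearts and 3.39, 0.54 and 0.48 in Myh6-tg, with no overlap, and the mean was 14.3 in EIIa-ctl hearts and 10.3 in EIIa-tg. These ratios were described and not tested.

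For the called genes with an entry in the RefSeq promoter table (GRCm38.p6), the bases upstream of the start are shown for Kcnip2, Kcnj2 and Kcnj3, called lower in Myh6-tg hearts as genes of the transient outward, resting and acetylcholine-activated currents. Capitals mark CACCC on either strand (GGGTG on the strand shown), the core bound by Kruppel-like factors such as Klf15, a known regulator of Kcnip2. Each window is the 250 bases before the start, on the strand of the gene, and lies at chr19:45816064-45816313 (minus), chr11:111065914-111066163 (plus) and chr2:55435720-55435969 (plus).
Kcnip2: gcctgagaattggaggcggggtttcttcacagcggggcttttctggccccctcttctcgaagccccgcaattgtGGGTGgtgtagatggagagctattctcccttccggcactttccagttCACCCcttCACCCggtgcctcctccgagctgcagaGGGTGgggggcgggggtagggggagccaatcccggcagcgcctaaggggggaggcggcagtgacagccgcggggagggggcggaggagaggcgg
Kcnj2: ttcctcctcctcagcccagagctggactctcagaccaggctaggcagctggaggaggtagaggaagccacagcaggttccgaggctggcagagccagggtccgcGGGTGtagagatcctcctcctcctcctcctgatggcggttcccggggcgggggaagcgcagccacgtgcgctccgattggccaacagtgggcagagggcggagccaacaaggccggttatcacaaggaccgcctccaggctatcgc
Kcnj3: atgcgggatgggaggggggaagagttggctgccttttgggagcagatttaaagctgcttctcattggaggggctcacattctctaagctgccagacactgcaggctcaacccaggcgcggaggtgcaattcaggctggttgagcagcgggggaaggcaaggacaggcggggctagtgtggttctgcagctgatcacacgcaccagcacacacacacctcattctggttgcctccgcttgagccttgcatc

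The Kcnip2 window held 4 matches to CACCC, the first 176 and the last 94 bases before the start, and the Kcnj2 window held 1, at 146 bases. No match was in the Kcnj3 window. Such matches are common, since 52.0% of all 32851 promoter windows of this length and 73.4% of the 94 windows of 69 Kcn genes held at least 1. For the E-box CANNTG the shares were 66.2% and 67.0%, and for GGGCGG they were 32.7% and 44.7%. Klf15 itself was not called in EIIa-tg (-0.10) or Myh6-tg hearts, where it was at 81.0, 34.6 and 36.2 normalised CPM beside 38.1, 71.9 and 55.7 in Myh6-ctl. A match describes letters and not binding.

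Of the delayed rectifier genes, Kcna5, the pore of an ultrarapid current, was at 34.9, 32.9 and 34.8 normalised CPM in Myh6-ctl hearts and 9.99, 22.2 and 17.5 in Myh6-tg. Here replicate 1 was the lowest heart of its group, and the log2 fold change was -1.03 ± 0.28 (adjusted p 0.0417, edgeR). Kcnq1, the pore of the slow delayed rectifier, was at 32.7, 31.9 and 21.8 normalised CPM in Myh6-ctl and 33.5, 3.01 and 2.35 in Myh6-tg. Replicate 1 was thus above all the controls and the others far below them, and the gene was not called (-1.13 ± 0.91, adjusted p 0.423, edgeR). Its partner Kcne1, an auxiliary subunit, was at 4.90, 10 and 3.94 in Myh6-ctl and 10.1, 3.96 and 4.29 in Myh6-tg (-0.02 ± 0.48, adjusted p 0.984, edgeR). Kcnh2, the pore of the rapid delayed rectifier, was at 46.7, 61.4 and 59.3 normalised CPM in Myh6-ctl and 38.9, 9.31 and 12.1 in Myh6-tg, below the controls in every heart but not called (-1.46 ± 0.50, adjusted p 0.0829, edgeR).

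The calcium-activated genes Kcnn1 and Kcnn2 encode small-conductance channels. Kcnn2 was at 8.52, 10.7 and 7.70 normalised CPM in Myh6-ctl hearts and 1.33, 0.0860 and 0.932 in Myh6-tg hearts, where replicate 2 had only 4 reads. Kcnn1 was at 10.9, 7.44 and 8.99 in Myh6-ctl and 4.13, 2.52 and 2.26 in Myh6-tg. Neither gene overlapped between groups, and the log2 fold changes were -3.49 ± 0.74 (adjusted p 0.0189, edgeR) and -1.60 ± 0.31 (adjusted p 0.0148, edgeR). The large-conductance pore gene Kcnma1 was at or near 0 in most hearts, with at most 31 reads, and its accessory gene Kcnmb1, which overlaps Kcnip1 on the other strand, was at 5.08, 1.72 and 2.54 normalised CPM in Myh6-ctl and 1.05, 1.25 and 1.17 in Myh6-tg (-1.40 ± 0.47, adjusted p 0.0771, edgeR). Whether counting used strand is not given in the sources used here.

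Kcne4, an auxiliary subunit that inhibits some voltage-gated channels, was the Kcn gene called higher. It was at 4.31, 4.55 and 5.90 normalised CPM in Myh6-ctl hearts and 7.65, 14.6 and 15.7 in Myh6-tg hearts. No Myh6-tg heart was within the control range, and replicate 1 was the nearest to it (1.38 ± 0.32, adjusted p 0.0233, edgeR). Fibroblast markers summed to 1823 to 2235 normalised CPM in Myh6-ctl hearts and 3185 to 7824 in Myh6-tg, with 4 of 7 called higher and none at 0, and their part in the Kcne4 result was not tested.

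The two-pore gene Kcnk3 was at 211, 117 and 98.0 normalised CPM in Myh6-ctl hearts and 126, 31.0 and 28.1 in Myh6-tg, so the groups overlapped through replicate 1 (-1.18 ± 0.60, adjusted p 0.206, edgeR). Its relative Kcnk2, a mechanosensitive leak channel, was at 3.33, 7.54 and 5.34 in Myh6-ctl and 3.50, 7.14 and 6.79 in Myh6-tg (0.13 ± 0.39, adjusted p 0.855, edgeR). Kcng2 was at 74.8, 110 and 67.7 normalised CPM in Myh6-ctl and 94.8, 74.6 and 63.1 in Myh6-tg (-0.10 ± 0.24, adjusted p 0.810, edgeR), while on the FPKM scale its mean was higher in Myh6-tg (37.2 FPKM) than in Myh6-ctl (27.8 FPKM), so its direction depended on the scale. The other named genes with uncalled differences in this comparison were Kcna4 (0.94), Kcnab1 (0.23), Kcnab2 (-0.18), Kcnj4 (0.20), Kcnj15 (1.24), Kcnn4 (-0.80) and Kcnrg (-0.60), given as log2 fold changes.

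**Figure D3:**
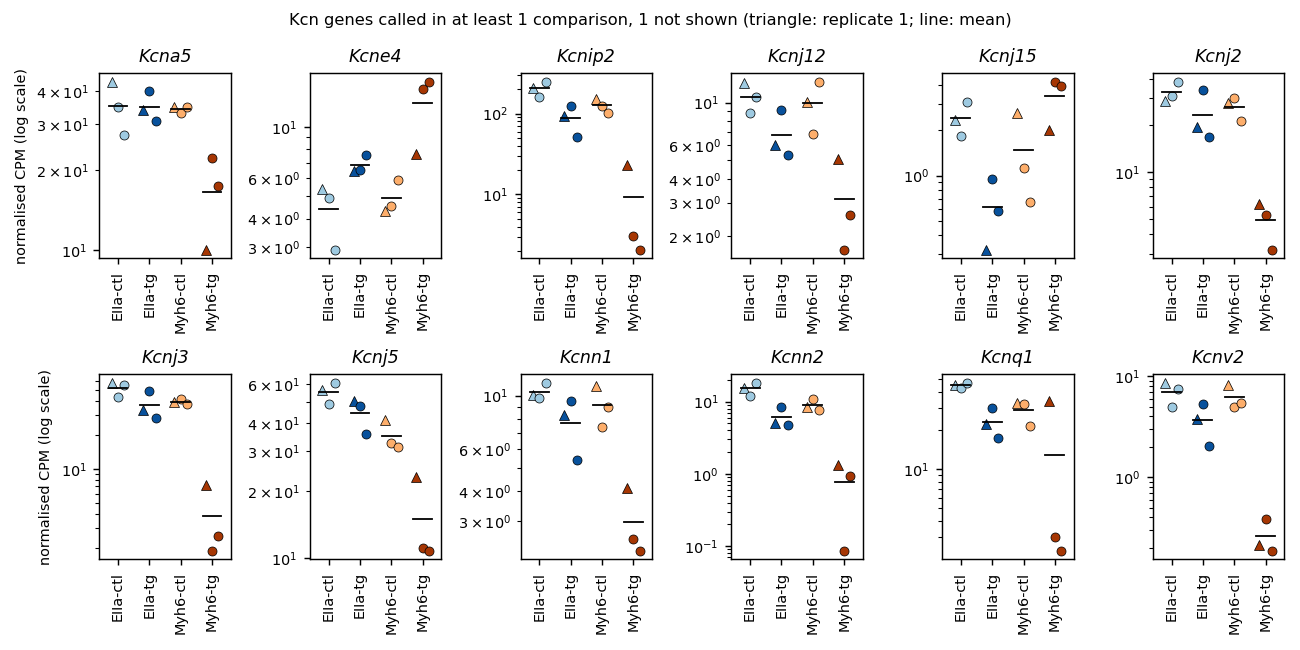
Normalised CPM (log axis, one scale per gene) of Kcn genes called in at least 1 comparison, in each heart of the 4 groups, with triangles for replicate 1 and lines at group means. Kcnq1 was at 33.5 in Myh6-tg replicate 1 and at 3.01 and 2.35 in the others, whereas Kcnv2 was at or below 0.387 in all 3.

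Myh6-tg replicate 1 therefore stood apart for a subset of Kcn genes. Relative to the mean of the Myh6-ctl hearts, on the log2 scale with 0.1 CPM added, it was at 0.22 for Kcnq1, -0.16 for Kcnj11 and -0.17 for Kcnk3, where replicates 2 and 3 were between -2.19 and -3.56. For Kcnv2 and Kcnj2 it was at -4.34 and -2.06, within or near the range of the others. When it was left out, Kcnj11 (-2.68 ± 0.19, adjusted p 0.000478), Kcnq1 (-3.41 ± 0.27, adjusted p 0.000640), Kcnk3 (-2.25 ± 0.35, adjusted p 0.00473), Kcnd2 (-3.69 ± 0.26, adjusted p 0.000485) and Kcnh2 (-2.37 ± 0.22, adjusted p 0.000974) were called lower by edgeR. This heart had the highest cardiomyocyte marker sum of its group, 30045 normalised CPM beside 13068 and 9625, and was the one of the group with Y-linked counts. The part of either in these values was not tested.

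**Figure D4:**
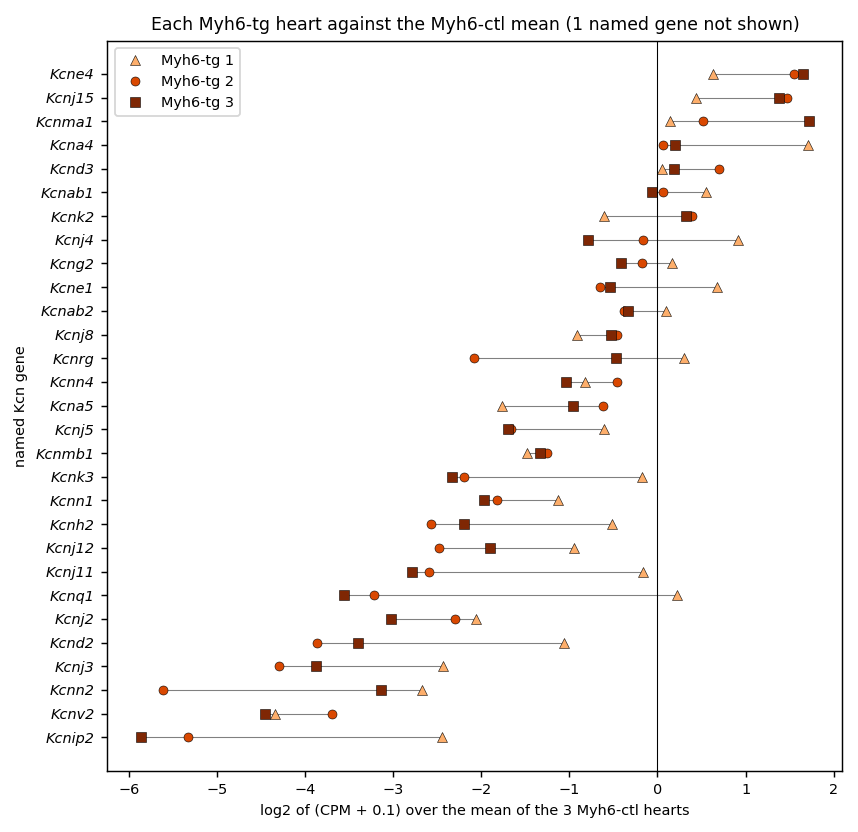
Each Myh6-tg heart relative to the mean of the Myh6-ctl hearts, as log2 of (normalised CPM + 0.1) over that of the mean (horizontal axis), for 29 named Kcn genes. Replicate 1 (triangles) lay near 0 for Kcnq1 (0.22), Kcnj11 (-0.16) and Kcnk3 (-0.17), and with the other hearts for Kcnv2 (-4.34).

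Same-numbered hearts of the Myh6 groups deviated together, and with the replicate number as a block 14 Kcn genes were called lower and 1 higher. Calls over all genes were 3204 of 15298 with the block. Kcnd2 (-2.83), Kcnh2 (-1.76), Kcnj11 (-1.85) and Kcnk3 (-1.47) were among those then called in addition to the 10, by edgeR at adjusted p values of 0.0255, 0.0460, 0.0405 and 0.0138. Kcnq1 was not called with the block (-2.24, adjusted p 0.0766, edgeR).

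In EIIa-tg hearts the accessory gene Kcnip2, the delayed rectifier gene Kcnq1, the small-conductance channel gene Kcnn2 and the inward rectifier gene Kcnj15 were called lower. Of 51 Kcn genes tested, 5 were called lower (9.80%), beside 8.30% of all 14908 genes, and 0 were called higher, beside 8.65%. Without adjustment 17 of the 51 had a p under 0.05 in edgeR, beside 34.9% of all genes. So did 17 of the 55 tested in the Myh6 comparison, beside 34.1% of all genes. DESeq2 called 8 in EIIa-tg hearts, all lower, and 3536 of all 19490 genes. The median log2 fold change was -0.01 over the 51 genes and 0.02 over all genes. No Kcn gene was a DEG by edgeR, and neither was any other of the 14908 genes tested. By DESeq2, 4 Kcn genes were DEGs. All 5 calls were lost when EIIa-ctl replicate 1 or 3, or EIIa-tg replicate 1 or 3, was left out. Calls over all genes then also went from 2527 to between 0 and 133. Without EIIa-tg replicate 2, 14 Kcn genes were called, 12 of them lower, while calls over all genes rose to 4079 of 15310.

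Kcnip2 was at 206, 159 and 248 normalised CPM in EIIa-ctl hearts and 92.3, 122 and 51.7 in EIIa-tg. Kcnq1 was at 45.3, 42.4 and 46.9 in EIIa-ctl and 22.5, 29.7 and 17.5 in EIIa-tg. For both genes the groups did not overlap, and EIIa-tg replicate 2 was the transgenic heart nearest the controls. The log2 fold changes were -1.20 ± 0.29 for Kcnip2 (adjusted p 0.0317, edgeR) and -0.94 ± 0.18 for Kcnq1 (adjusted p 0.0193, edgeR).

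Kcnn2 was at 15.4, 12.1 and 18.3 normalised CPM in EIIa-ctl hearts and 5.05, 8.45 and 4.80 in EIIa-tg (-1.32 ± 0.25, adjusted p 0.0188, edgeR). Kcnj15, an inward rectifier known mainly from epithelia, was at 2.35, 1.84 and 3.09 in EIIa-ctl and 0.319, 0.946 and 0.577 in EIIa-tg (-1.96 ± 0.44, adjusted p 0.0270, edgeR). In both genes all EIIa-tg hearts were below all controls. Replicate 2 of EIIa-tg again had the highest value of its group, and it also had the highest cardiomyocyte marker sum, 42381 normalised CPM beside 23350 and 22923. The part of this in the Kcn values was not tested. Macrophage and leukocyte markers were higher in EIIa-tg, with 6 of 6 tested called and sums of 275 to 381 normalised CPM beside 145 to 215, and 3 of 6 endothelial markers were called lower. Of the 23 cardiac repolarization subunits tested here, 4 were called lower and 0 higher by edgeR, beside 8.30% and 8.65% of all genes.

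Genes of the resting and acetylcholine-activated currents were not called in EIIa hearts. Kcnj2 was at 28.8, 31.1 and 38.3 normalised CPM in EIIa-ctl and 19.4, 33.9 and 16.7 in EIIa-tg (-0.48 ± 0.25, adjusted p 0.213, edgeR). Kcnj3 was at 57.6, 42.7 and 55.4 in EIIa-ctl and 33.1, 48.3 and 27.8 in EIIa-tg (-0.50 ± 0.21, adjusted p 0.122, edgeR). In each, EIIa-tg replicate 2 lay within the control range and the other hearts below it. Kcna5 was at 43.4, 34.9 and 27.3 in EIIa-ctl and 33.9, 40.0 and 30.8 in EIIa-tg (-0.01 ± 0.17, adjusted p 0.986, edgeR), and Kcne4 was at 5.39, 4.91 and 2.93 and 6.43, 6.48 and 7.55 (0.63 ± 0.24, adjusted p 0.0983, edgeR).

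By edgeR, values of the other named genes in EIIa hearts were likewise short of a call. DESeq2 called Kcnd2, Kcne1 and Kcnk3 lower. Kcnd2 was at 29.5, 19.1 and 28.2 normalised CPM in EIIa-ctl and 9.47, 19.8 and 7.15 in EIIa-tg, overlapping through replicate 2 (-1.07 ± 0.35, adjusted p 0.0689, edgeR). Kcne1 was at 9.23, 20.3 and 21.3 and 4.44, 11.1 and 8.57 (-1.07 ± 0.38, adjusted p 0.0854, edgeR). Kcnk3 was at 186, 159 and 180 in EIIa-ctl and 147, 133 and 108 in EIIa-tg, with no overlap but a small shift (-0.43 ± 0.13, adjusted p 0.0542, edgeR). Kcng2 was at 79.8, 74.0 and 80.6 in EIIa-ctl and a little above them, at 94.1, 84.4 and 95.2, in EIIa-tg (0.23 ± 0.09, adjusted p 0.109, edgeR), and was called by limma on the FPKM scale, where the median of all genes was itself shifted by 0.16. Kcnab2, an auxiliary beta subunit that overlaps Nphp4 on the other strand, differed by 0.81 ± 0.29 (adjusted p 0.0901, edgeR).

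The difference between the models was tested in all 12 hearts as the change in Myh6-tg minus that in EIIa-tg. Of 57 Kcn genes, 3 were lower in Myh6-tg (5.26%), beside 2.27% of all 15929 genes, and 1 was higher (1.75%), beside 1.65%. Kcnv2 differed by -3.63 ± 0.56 (adjusted p 0.00739, edgeR), Kcnj3 by -2.81 ± 0.55 (adjusted p 0.0158, edgeR) and Kcnj2 by -1.93 ± 0.41 (adjusted p 0.0219, edgeR). Kcnj15 differed in the other direction, by 3.20 ± 0.76 (adjusted p 0.0376, edgeR). It was at 2.63, 1.12 and 0.662 normalised CPM in Myh6-ctl and 2.02, 4.24 and 3.97 in Myh6-tg, where the groups overlapped and the log2 fold change of 1.24 ± 0.57 was not called (adjusted p 0.170, edgeR), so the difference combines this with its fall in EIIa-tg. For Kcnip2 (-2.53 ± 0.97, adjusted p 0.173, edgeR) and Kcnn2 (-2.17 ± 0.75, adjusted p 0.133, edgeR), which were called lower in both models, a difference in size was not called. Without Myh6-tg replicate 1, 15 Kcn genes were called, 14 of them lower in Myh6-tg, among them Kcnip2 (-4.42). Calls over all genes then rose from 624 to 1727 of 16337.

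**Figure D5:**
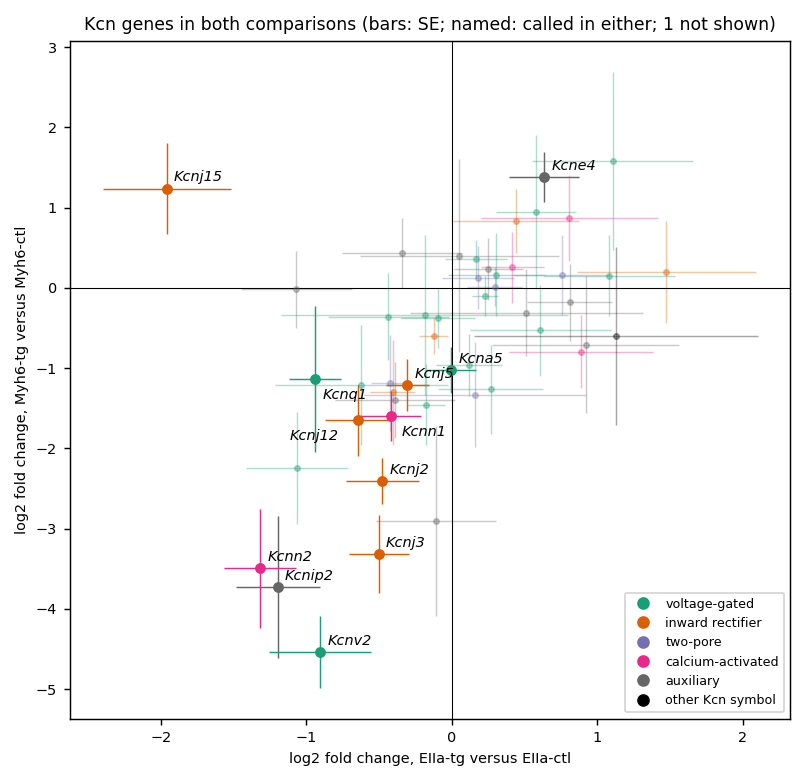
Log2 fold change in EIIa-tg (horizontal axis) and in Myh6-tg (vertical axis), each against its own controls, for 49 Kcn genes tested in both, with SE bars and names for genes called in either. Kcnip2 and Kcnn2 were called lower in both, and Kcnj15 was lower in EIIa-tg (-1.96) and at 1.24 in Myh6-tg.

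Between the control groups, 0 of 53 Kcn genes were called by edgeR, beside 0.0334% of all 14990 genes. Without adjustment 14 of the 53 had a p under 0.05 in edgeR, beside 11.3% of all genes. DESeq2 called 4, Kcne1, Kcnj4, Kcnj5 and Kcnip2, and 428 of all 19244 genes. Kcne1 was at 17.0 normalised CPM ± 6.70 in EIIa-ctl and 6.28 ± 3.27 in Myh6-ctl hearts (SD, n = 3; -1.43 ± 0.41, adjusted p 0.230, edgeR). Kcnj4, an inward rectifier of brain and heart, was near the floor in EIIa-ctl (0.161, 0.0787 and 0.110 normalised CPM) and at 0.929, 0.884 and 0.530 in Myh6-ctl (2.71 ± 0.64, adjusted p 0.173, edgeR).

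Partners of potassium channels from outside the family were given by a list of 20 genes, of which 17 were tested in each model. In Myh6-tg hearts 3 were called lower and 1 higher, beside the 9.38% and 8.96% of all genes given above. Beside Abcc9, the lower genes were the pacemaker channel gene Hcn4 (-1.83 ± 0.48, adjusted p 0.0369, edgeR) and Irx4, a ventricular transcription factor (-1.72 ± 0.48, adjusted p 0.0444, edgeR). In EIIa-tg hearts 4 were called lower and 1 higher, beside 8.30% and 8.65% of all genes, and the lower genes were Abcc9 (-0.77), Hcn2 (-1.56), Amigo1 (-0.59) and Irx4 (-0.76).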

How the data were processed

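The authors prepared libraries with the NEBNext Ultra kit, sequenced 150 bp paired-end reads on a NovaSeq and mapped them with HISAT2. The submitters' notes name HISAT2 2.0.4, StringTie 2.2.1 and DESeq2, and the builds mm10 and GRCm39, whereas the methods of the study name GRCm38. The counting step and annotation are not given in the sources used here. The authors deposited raw read counts per gene, without normalization, and FPKM values, which they scaled to transcript length and mapped fragments.

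Hearts were grouped by their labels. The genotype tags of EIIa-tg replicates 2 and 3 differ from that of replicate 1, and their titles were used. Replicates of a group differed beyond sampling noise. Tests used R 4.3.3, with edgeR 4.0.16 (filterByExpr, TMM, glmQLFit, glmQLFTest) on the 6 hearts compared and on all 12 for the difference between models, and Benjamini-Hochberg adjustment over all genes tested. The tests were checked on simulated data.

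Members, lists and motifs were chosen with earlier results of these data known. Named genes were a list of 24 cardiac repolarization subunits, every DEG, the 2 genes with the highest FPKM in each subfamily and the 5 with the lowest p in each comparison. Promoter windows came from RefSeq, and 69 of 94 Kcn genes had one. Some genes are not reported here, although they are in the counts.

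The correlation of deviations from the group means in same-numbered hearts was 0.281, 0.184 and 0.170 in the Myh6 comparison. In the EIIa comparison it was 0.048, -0.072 and -0.055. Different-numbered hearts reached 0.138 in the EIIa comparison, and replicate 1 of the control groups 0.121, so such values do not establish pairs. The main tests used no block, and the replicate block was an alternative. Replicate 1 of each group had Y-linked counts, and the part of this in the correlations was not tested.

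Alternatives were DESeq2 1.42.0, RLE factors, no filter, a CPM of at least 1 in 3 hearts, all 12 hearts in one fit, the replicate block, removal of mitochondrial genes, limma 3.58.1 on log2 FPKM with pseudocounts of 1 and 0.1 (FPKM of at least 0.5 in 3 hearts), and each heart left out in turn. Figures used matplotlib 3.10.9.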

Additional observations from a re-analysis of the deposited data

Results flagged for a closer look

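The change in Myh6-tg hearts differed from that in EIIa-tg hearts for 4 Kcn genes by edgeR's quasi-likelihood test of the difference itself in 12 hearts. The log2 differences were -3.63 for Kcnv2, -2.81 for Kcnj3, -1.93 for Kcnj2 and 3.20 for Kcnj15. Over the alternatives, Kcnj3 stayed called in 20 of 20, Kcnv2 in 19, Kcnj2 in 18 and Kcnj15 in 10. Age, Cre line and injection differ between the models and cannot be told apart from the difference.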

How the results depend on the processing

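Of the 19 called values of named genes, 145 of 165 alternatives other than leaving out a heart kept direction and call, and 20 lost the call. Leaving out hearts kept 76 of 138 and lost 62, and none of either kind reversed. Among values called in neither setting, 71 of 1482 had the other sign. In the Myh6 comparison Kcnv2, Kcnj2 and Kcnj3 stayed called in 15 of 15 alternatives. DESeq2 called 8 Kcn genes in the EIIa, 15 in the Myh6 and 4 in the control comparison (in all genes, 3536, 3870 and 428). Its Kcn DEGs were 4 in EIIa, 12 in Myh6 and 4 in the difference. All 12 hearts in one fit gave 0 calls in EIIa (in all genes, 227 of 15929). In Myh6 this fit gave 17 calls (in all genes, 5049 of 15929) and 10 DEGs. No share over all genes is given here for the DEG counts of the alternatives. Without a filter 1 gene was a DEG in EIIa and 2 in the difference. On log2 FPKM with a pseudocount of 0.1, 5 were DEGs in Myh6 and 0 in the difference. With the replicate block, 0 were called in EIIa (in all genes, 1 call), where same-numbered hearts did not deviate together. With it 5 were DEGs in Myh6 and 0 in the difference, and 3 were called in the difference (in all genes, 650 of 15929). Leaving out a heart gave 0 to 14 calls and 0 to 6 DEGs in EIIa, 3 to 18 calls and 0 to 15 DEGs in Myh6, and 2 to 15 calls and 0 to 10 DEGs in the difference. Calls over all genes then were 0 to 4079 in EIIa, 798 to 4269 in Myh6 and 293 to 1727 in the difference. With a limit of 0.5 FPKM, 36 genes were detected. Fewer hearts enter each fit that leaves one out. For the other changes the cause was not tested. At 3 hearts a group and a floor of 0.0589 to 0.0782 CPM, few reads stood behind genes such as Kcnma1 and Kcnj4, and smaller differences were not detectable.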
